A study of Mus musculus with 14 samples.

Results

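The comparison described here set erythroid Ter cells of the embryonic mouse liver against hematopoietic stem cells (HSC) of the bone marrow, gene by gene. Its members were the genes with at least 1 FPKM (a count of sequenced fragments scaled by exon length and by library size) in either group, which gave 13461 genes. Of these, 246 were set aside because they stood at 5 FPKM or more in all of HSC, CLP and the spleen control and at no more than 1/20 of the lowest of these in each of the other 4 groups. The remaining 13215 of the 49583 genes in the deposited table were compared, through 4 of the 14 samples. The liver Ter group held 2 samples of Ter-119+ CD45- Lin- cells from embryonic liver at stage E14.5. The HSC group held 2 samples of bone marrow cells gated as c-Kit+ Sca-1+ Lin-. Both groups came from wild type C57BL/6 mice and were sorted to a stated purity above 98%. Neither the number of mice behind a sample nor the age of the marrow donors is given in the labels. The HSC gate used no further stem cell antigen, so it also admits the multipotent progenitors that share these 2 surface proteins. The other groups of the series, cited only beside the pair, were Ter cells and CD45+ Ter-119- control cells from the spleen of tumour-bearing mice, and CLP, MEP and CMP from the marrow.

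Ter-119 is a surface antigen of erythroblasts and red cells. At mid-gestation the liver is the main site of blood formation in the mouse, and most of its cells are erythroblasts that build hemoglobin, remodel their membrane and later expel the nucleus. Erythropoietin, the receptor Epor and the factors Gata1 and Klf1 drive that program, while hematopoietic stem cells are held by the receptor Kit, by Hoxa, Ets and Runx family factors and by niche adhesion. The comparison thus sets a late erythroid stage of the fetus against early multipotent marrow cells. Cell type, tissue and developmental age differ between the groups together and cannot be told apart.

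The deposited value of each group is a mean of its 2 samples, and the liver Ter and HSC columns were written in different number formats, so the pair is described by size only and no test was made. The difference of a gene is log2(liver Ter FPKM + 1) minus log2(HSC FPKM + 1). A gene is called higher or lower when this difference reaches 1, a 2-fold change on that scale, which understates the change of genes near 1 FPKM. The 2 liver Ter libraries, here called A and B, held 28537889 and 17537636 fragments. Their separate values were recovered from the digits of the mean for 6399 of the 7240 genes at 1 FPKM or more in liver Ter. Only 50 of these genes (0.781%) differed by 2-fold or more between A and B. The HSC libraries could not be separated, so HSC values carry no error, and the spread within HSC is unknown.

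The labels were checked against marker genes. All 8 erythroid markers stood at 1 FPKM or more in liver Ter, with a summed level of 123354 FPKM, and 0 of the 9 stem cell markers did. In HSC, 8 of the 9 stem cell markers reached 1 FPKM, among them Kit at 22.3, Ly6a (Sca-1) at 32.5 and Cd34 at 44.4. The HSC column also held markers of mature cells that a lineage gate should remove. Its 5 neutrophil markers summed to 10999 FPKM, its 6 macrophage markers to 175 FPKM and its 4 B cell markers to 267 FPKM. The HSC and CLP columns were close to each other, with 5.59% of genes 2-fold apart. In liver Ter the same neutrophil, macrophage and B cell sums were 270, 10.8 and 0.933 FPKM, and the summed level of 5 hepatocyte markers was 19.1 FPKM.

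Promoters of genes at both ends of the comparison were read from RefSeq (GRCm38.p6) and are shown because the erythroid genes are known targets of Gata1, which binds AGATAA, and of Klf1, which binds CACCC boxes. The 250 bases before the start are given 5′ to 3′ for Hbb-bs (chr7:103827929-103828178, minus strand), Alas2 (chrX:150547167-150547416, plus strand), Rhd (chr4:134864286-134864535, plus strand), Trim10 (chr17:36869324-36869573, plus strand) and Prss34 (chr17:25298144-25298393, plus strand). These 5 were picked from the genes named by rule because each carries an AGATAA. Windows that also take in the 50 bases after the start were available for 14 named genes in each direction. Of these, 7 higher genes and 5 lower genes hold an AGATAA. By window this is 43.8% of 16 and 33.3% of 15, beside 11.2% of all windows. The match of H2-Eb1, a lower gene, lies after the start. Hba-a1, Hbb-bt, Hbb-y, Klf1, Ermap, Rhag and Ypel4 have none. The first 4 genes shown were far higher in liver Ter and Prss34, a basophil protease, was the gene furthest lower among those named by rule. Capitals mark AGATAA, CCACACCC and CCACCC on either strand.
Hbb-bs: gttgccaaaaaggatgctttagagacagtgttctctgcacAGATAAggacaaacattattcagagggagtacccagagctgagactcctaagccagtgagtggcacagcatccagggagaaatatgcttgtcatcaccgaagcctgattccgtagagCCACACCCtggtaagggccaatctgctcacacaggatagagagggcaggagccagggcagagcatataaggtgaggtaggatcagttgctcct
Alas2: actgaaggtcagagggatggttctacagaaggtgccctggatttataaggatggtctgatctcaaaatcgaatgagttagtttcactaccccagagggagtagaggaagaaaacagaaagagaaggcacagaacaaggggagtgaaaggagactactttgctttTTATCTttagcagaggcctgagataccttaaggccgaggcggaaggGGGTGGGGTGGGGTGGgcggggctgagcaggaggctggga
Rhd: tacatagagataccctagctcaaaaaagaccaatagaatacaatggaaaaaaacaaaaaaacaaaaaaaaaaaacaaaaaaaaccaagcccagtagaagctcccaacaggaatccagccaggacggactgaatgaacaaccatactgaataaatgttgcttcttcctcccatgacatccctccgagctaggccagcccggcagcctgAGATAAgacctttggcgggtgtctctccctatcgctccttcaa
Trim10: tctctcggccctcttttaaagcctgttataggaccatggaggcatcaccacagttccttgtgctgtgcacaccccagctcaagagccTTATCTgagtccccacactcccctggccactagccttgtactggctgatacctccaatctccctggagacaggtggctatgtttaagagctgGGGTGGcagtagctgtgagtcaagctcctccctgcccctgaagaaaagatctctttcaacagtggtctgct
Prss34: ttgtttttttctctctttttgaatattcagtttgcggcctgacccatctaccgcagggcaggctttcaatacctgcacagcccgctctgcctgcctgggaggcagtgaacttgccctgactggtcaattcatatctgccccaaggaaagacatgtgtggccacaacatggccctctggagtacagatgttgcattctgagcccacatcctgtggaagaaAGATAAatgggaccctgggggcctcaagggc
The AGATAA match begins 210 bases before the start in Hbb-bs, 86 in Alas2, 43 in Rhd, 163 in Trim10 and 31 in Prss34, so the letters occur on both sides of the comparison. Hbb-bs also carries a CCACACCC, Alas2 a run with 3 overlapping copies of CCACCC on the other strand, and Trim10 a single CCACCC, while Rhd and Prss34 have neither.

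Liver Ter cells held a narrow set of very abundant transcripts and HSC a broad one. In liver Ter 5 genes made up 50% of all FPKM, against 189 genes in HSC, and the globin genes alone took 47.6% of the liver Ter total and 0.122% of the HSC total. At least 1 FPKM was reached by 7240 genes in liver Ter and by 12980 in HSC, and at least 100 FPKM by 248 and 457. Of the 13215 genes compared, 961 (7.27%) were higher in liver Ter and 8769 (66.4%) were lower, so 73.6% were 2-fold apart and 3485 were not. The median difference over all genes compared was -1.40. Because FPKM is a share of the library, this median moves with the scaling. It was -0.98 with totals that leave out globin genes, -0.74 with median-of-ratios scaling and -0.02 with quantile normalization. The share of 2-fold genes that were higher in liver Ter moved with it, from 9.88% to 21.5%, 26.8% and 48.1%. Each list below is therefore given with its median and with the distance of that median from the all-gene median. Genes at 10 FPKM or more in 1 group and under 0.1 in the other numbered 52 for liver Ter and 241 for HSC.

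**Figure D1:**
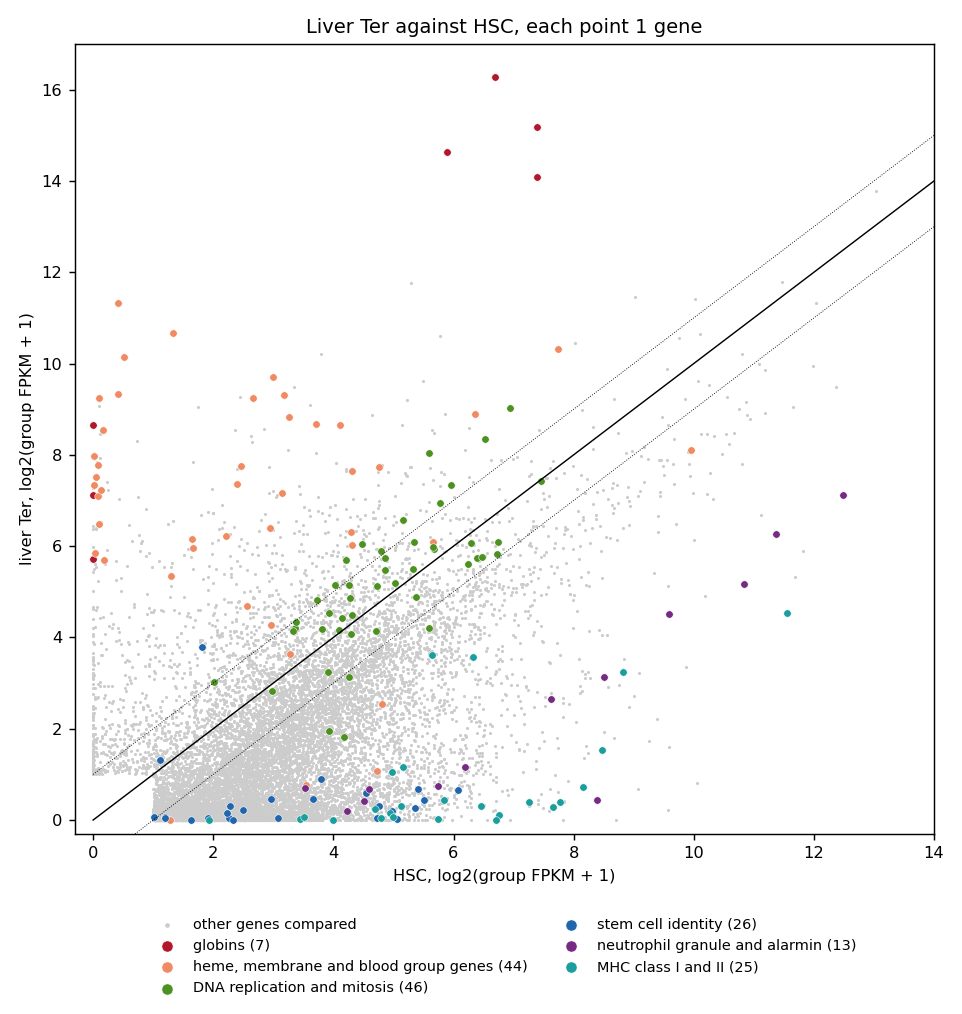
Each point is 1 of the 13215 genes compared, with its HSC mean on the x axis and its liver Ter mean on the y axis, both as log2(FPKM + 1). The solid line marks equal values and the dotted lines 2-fold. Globins, heme, membrane and blood group genes lie mostly above the lines, neutrophil, stem cell and MHC genes mostly below, and replication and mitosis genes around them.

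The gene lists held 597 genes, of which 595 had a value. Ahsp, the alpha-globin chaperone, and Ptprc, which encodes CD45, were not analysed here. A further 49 stood under 1 FPKM in both groups, which left 546 compared. Of these, 119 were higher in liver Ter, 334 were lower and 93 were neither, beside 7.27% higher and 66.4% lower among all genes. All 119 higher members stayed at least 2-fold higher under the 3 other scalings. The globin-free and median-of-ratios scalings raise liver Ter against HSC, so for them this outcome was fixed in advance. Of the 334 lower members, 303, 277 and 232 stayed at least 2-fold lower with globin-free totals, median-of-ratios and quantile scaling, and 0, 6 and 19 turned to a positive difference. Both libraries were recovered for 409 of the members that were 2-fold apart. Among all genes compared, 6003 stood under 1 FPKM in liver Ter and 481 in HSC. Such genes entered the comparison through the other group alone, so the direction of their difference was fixed in advance.

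**Figure D2:**
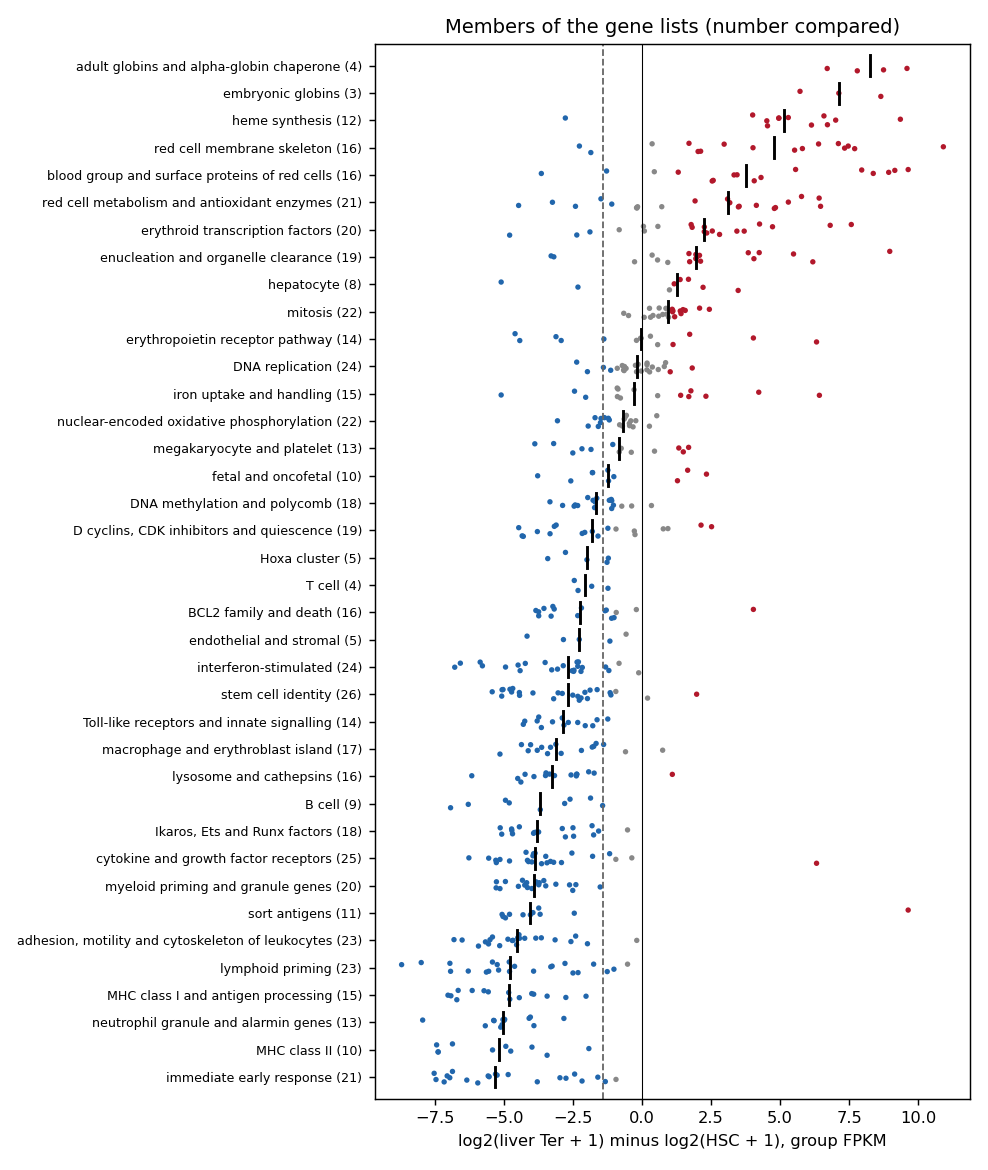
Each row is a gene list with the number of members compared, and each point a member, placed by its log2 difference of liver Ter minus HSC (red at least 2-fold higher, blue at least 2-fold lower, grey neither). The black bar is the list median, the solid line 0 and the dashed line the median of all genes, -1.40. Red cell lists lie at the top with medians up to 8.27, and the immediate early, MHC class II and neutrophil lists at the bottom.

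Hemoglobin genes were the most abundant transcripts of liver Ter. All 4 adult globin genes compared were higher there, with a median difference of 8.27, or 9.67 above the all-gene median. Hbb-bs, an adult beta globin gene, stood at 79975 FPKM in liver Ter and 103 in HSC. Hba-a1 and Hba-a2 encode near-identical alpha chains, so the split of reads between them is uncertain. Their liver Ter means were 37139 and 17472 FPKM, against 166 and 166 in HSC. Hbb-bt, the second adult beta gene, stood at 25575 against 58.6. How reads were split between it and Hbb-bs was not checked. The 4 adult genes were thus also present in HSC at 58.6 FPKM or more. Hba-a1 reached 433 FPKM in CLP but 1.45 in CMP and 2.77 in MEP. Embryonic globins, which serve the primitive red cells of the yolk sac, were seen in liver Ter and listed at 0 in HSC, with a median difference of 7.13 over the 3 compared (8.53 above all genes). All 3 entered the comparison through liver Ter alone, so their direction was fixed in advance. Hbb-y stood at 399.7 FPKM, Hbb-bh1 at 129.6 and 148 FPKM in libraries A and B, and Hba-x at 50.4 and 53.01. Hbb-y was listed at 0 in all 6 other groups, spleen Ter included, so among the 7 groups it was present in the fetal one alone. Hbb-bh2 was at 0.675 FPKM in liver Ter and was not compared.

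In heme synthesis 11 of 12 members were higher in liver Ter, with a median of 5.13 (6.53 above that of all genes). The first step has paralogs on opposite sides. Alas2, the erythroid 5-aminolevulinate synthase, stood at 1636 FPKM against 1.502 in HSC, a difference of 9.35. Alas1, the housekeeping form, stood at 0.812 and 0.589 FPKM against 10.7 and was the 1 member lower in liver Ter. Further along the pathway, Urod, a decarboxylase, was at 407 and 404 FPKM against 12.2. Fech, which inserts the iron, had a mean of 839 against 7.002. The smallest difference among the higher members was 4.01, that of Slc25a38, the mitochondrial glycine carrier. Tspo2, an erythroid porphyrin and cholesterol transporter, was near absent from HSC at 0.0587 FPKM and stood at 135 and 136 in liver Ter.

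Iron genes lay on both sides. Of 15 members 6 were higher and 3 lower. Their median was -0.29, which turned positive (0.52 to 1.18) under the other scalings and lay 1.11 above the all-gene median. Among the higher members, Tfrc, the transferrin receptor, stood at 466 FPKM against 23.9, and Slc25a37 (mitoferrin-1), which carries iron into mitochondria, at 1191 against 12.9. Slc11a2 (DMT1), which moves iron out of the endosome, stood at 20.2 and 19.6 FPKM against 3.197. Steap3, the endosomal ferrireductase, stood at 15.2 and 14.6 against 3.92. Among the lower members, Trf, which encodes transferrin itself, was at 0.137 and 0.0687 FPKM against 36.8 in HSC, and Hmox1, which breaks heme down, at 7.66 and 8.99 against 49.8. The ferroportin gene Slc40a1 differed little, with 4.95 and 5.07 FPKM against 6.33.

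The membrane skeleton of the red cell is a spectrin lattice tied to the bilayer by ankyrin, band 3 and protein 4.1. Of its 16 members 13 were higher in liver Ter and 2 lower, with a median of 4.77 (6.17 above all genes). Slc4a1, band 3, had the largest difference of all genes named by rule, 10.91, with 2558 FPKM in liver Ter and 0.329 in HSC (chr11:102348824-102366203, minus strand, GRCm38). The beta spectrin gene Sptb had a liver Ter mean of 149 FPKM and an HSC mean of 0.0902. Ank1 stood at 100.2 and 76.7 FPKM in the 2 libraries against 0.06501. Within the adducins the genes went apart: Add2, the erythroid beta form, stood at 59.2 and 53.4 FPKM against 0.0231, while Add3 stood at 4.79 against 26.9. Actb, the other lower member, was at 274 FPKM against 993. Both Add3 and Actb are widely expressed genes. Piezo1, the stretch-activated channel, differed by 0.37, short of 2-fold.

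Surface proteins that carry blood groups were mostly higher, with 13 of 16 members higher and a median of 3.75 (5.15 above all genes). The Rh complex was represented by Rhd, at 608 and 610.5 FPKM against 0.07203, and by Rhag, at 247 and 253 against 0.0128. The Kell protease gene Kel stood at 660.4 and 633 FPKM against 0.327, and its membrane partner Xk at 38.6 and 41.3 against 1.45. Ermap, the Scianna antigen, stood at 383 and 360.3 against 0.125. For these 5 genes libraries A and B lay close together, and HSC was far below both. Slc2a1, the glucose transporter GLUT1, was at 461 and 447 FPKM against 8.64. In the other direction, the hyaluronan receptor Cd44 stood at 1.03 and 1.19 against 25.4. Icam4, the Landsteiner-Wiener antigen, was listed at 0 in liver Ter and at 1.44 FPKM in HSC.

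Erythroid transcription factors were higher for 13 of 20 members and lower for 3, with a median of 2.26 (3.66 above all genes). Klf1, which activates the adult beta globin gene, stood at 319 and 315 FPKM against 0.666. Gata1 stood at 106 and 104 FPKM against 2.9999, whereas Gata2, the stem and progenitor member of the same family, stood at 0.247 and 0.201 against 25.4. Tal1, a partner of both, was at 141 and 141 against 9.92. Hemgn, a nuclear protein of erythroblasts, stood at 613 and 615 against 4.47. Sox6, which takes part in silencing embryonic globin, stood at 22.5 and 22.2 against 0.223. The 3 lower members act earlier or as repressors: Myb, the progenitor factor, stood at 0.557 and 0.709 FPKM against 44.3, Cbfa2t3 at 2.33 and 2.12 against 15.6, and Bcl11a, which represses embryonic and fetal-type globin genes, at 2.298 and 2.29 against 11.2. Lyl1 and Ldb1, general partners of these complexes, differed by 0.08 and 0.05.

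In the erythropoietin receptor pathway the receptor and its survival target were higher and several signal relays were not. Epor stood at 135 and 131 FPKM against 0.682, a difference of 6.32. Bcl2l1, which encodes BCL-XL, stood at 137 and 132 against 7.29. The kinase Jak2 was near equal, at 27.6 and 29.8 against 23.1. The transducers were lower: Stat5a stood at 0.28002 in both libraries against 10.1, and Stat5b at 2.92 and 3.09 against 29.5. Erfe, the erythroid hormone that lowers hepcidin, stood at 3.22 and 2.82 FPKM against 0.215. Over the list 4 of 14 were higher and 5 lower. The median, -0.04 (1.36 above all genes), became 0.78 to 1.14 under the other scalings.

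Of the 21 enzyme genes of red cell metabolism 12 were higher and 5 lower, the median being 3.10 (4.50 above all genes). Gpx1, the main glutathione peroxidase, stood at 3468 FPKM against 38.3. Pklr, the pyruvate kinase of liver and red cells, stood at 94.3 and 89.5 FPKM against 0.0906, and Bpgm, which makes 2,3-bisphosphoglycerate, at 204 and 206 against 4.24. Car2, carbonic anhydrase II, was at 1551 against 53.5. The peroxiredoxin Prdx2 stood at 785 and 792 FPKM against 43.8. Among the lower members, Gpi1, glucose-6-phosphate isomerase, stood at 4.35 and 4.42 FPKM against 118, and Pgk1 at 10.4 and 10.7 against 108. Aldoa was at 9.97 against 57.3. The low values of Gpi1, Pgk1 and Aldoa were not shared by CMP, where they stood at 118, 147 and 133 FPKM in the number format of liver Ter.

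Genes of organelle clearance and enucleation were higher for 13 of 19 members, with a median of 1.95 (3.35 above all genes). Trim10, a ubiquitin ligase gene of erythroblasts, stood at 542 and 532 FPKM against 0.0731. Ube2l6, a conjugating enzyme, stood at 539 and 557 against 11.3. Ube2o, which directs the removal of ribosomes in maturing reticulocytes, stood at 113 and 93.6 against 6.25. Xpo7, an exportin needed for nuclear condensation, had a mean of 143 against 6.62. Bnip3l (NIX), the receptor for removal of mitochondria, differed less, at 129.9 and 143 FPKM against 31.5. Of the 2 lower members, Alox15, the lipoxygenase, stood at 0.485 and 0.232 against 11.4.

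Liver Ter cells carried the transcripts of dividing cells. None of the 22 mitosis genes was lower and 10 were higher, with a median of 0.93, or 2.33 above that of all genes; under the other scalings 19 or 20 were higher. Mki67, the proliferation antigen, stood at 519.6 FPKM against 122. Ube2c, the ubiquitin-conjugating enzyme of the anaphase-promoting complex, stood at 260.4 and 262 FPKM against 47.4. Aurka and Ccnb1 differed by 1.56 and 1.48. The lowest of the list was Top2a, at -0.66. The call for DNA replication genes depended on the scaling. As deposited, 2 of 24 were higher and 4 lower, and the median was -0.17 (1.23 above all genes). With globin-free totals, median-of-ratios and quantile scaling 10, 11 and 11 were higher and 2, 1 and 0 lower, and the median turned to between 0.69 and 0.95. Rrm2, the ribonucleotide reductase subunit of S phase, stood at 319 and 327 FPKM against 90.9. Pcna stood at 170.4 and 171 against 174. Fen1, the flap endonuclease, went the other way, at 2.34 and 2.66 against 17.1.

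Regulators of the G1 phase lay on both sides. Ccnd3, the D cyclin of erythroblasts, stood at 44.7 and 43.7 FPKM against 9.28, while Ccnd2 stood at 0.2495 and 0.285 against 24.7 and Cdk6, their kinase, at 0.263 and 0.326 against 27.6. Among the inhibitors, Cdkn2d (p19) stood at 132 and 129 against 21.95 and Cdkn1a (p21) at 1.09 and 1.54 against 44.5. Cdkn1b (p27) was close to equal, with a difference of -0.28. Myc was lower, at 2.24 and 2.896 FPKM against 31.3. Over the list 2 of 19 were higher and 12 lower (median -1.80, -0.40 from that of all genes). Among all genes 7.27% were higher and 66.4% lower, so the list lay near those shares.

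Several of these groups contain related genes on opposite sides, and 7 such pairs were plotted, chosen after their values were seen. Klf1 and Klf2 are one of them: Klf2, a factor of quiescent lymphocytes and endothelium, stood at 0.304 and 0.309 FPKM in liver Ter and 229 in HSC.

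**Figure D3:**
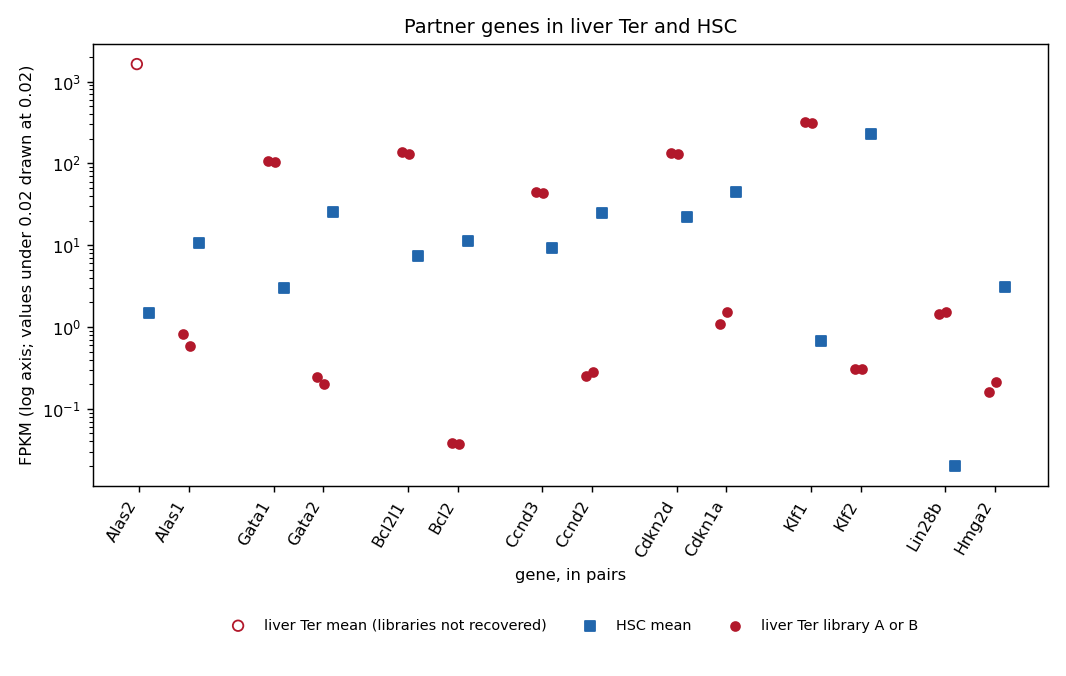
FPKM on a log axis of 14 genes, set out as 7 pairs, in liver Ter libraries A and B (red; open where only the mean is known) and in HSC (blue squares, group mean). Lin28b in HSC, at 0.0148, is drawn at 0.02. In each pair the first gene is higher in liver Ter and the second higher in HSC, and the red points of each gene lie on 1 side of the blue square.

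Genes of stem cell identity were lower in liver Ter for 23 of 26 compared members, out of 32 listed, with a median of -2.70 (-1.30 from all genes, beside 66.4% lower overall). Kit and Ly6a were used by the HSC gate, so their levels check the sort: Kit stood at 0.511 and 0.499 FPKM in liver Ter and 22.3 in HSC. Over the genes of the antigens used in the sorts, 10 of 11 compared were lower and 1 was higher (median -4.04, -2.64 from all genes). Cd34 stood at 0.361 and 0.344 FPKM against 44.4. Erg, an Ets factor that maintains stem cells, stood at 0.152 and 0.263 against 39.8. Angpt1, the Tek ligand made by stem cells themselves, stood at 0.123 and 0.161 against 30.4. Genes tied most closely to long-term stem cells were low even in HSC: Mecom stood at 0.973 FPKM, Slamf1 at 0.331, Hoxb5 at 0.0194 and Procr at 2.09. The exception was Mllt3, a chromatin reader that also takes part in erythroid fate, with 12.4 and 13.3 FPKM in liver Ter against 2.52. With quantile normalization 15 of the 26 stem cell genes were lower. Of these 26, 2 reached 1 FPKM in liver Ter, so most entered the comparison through HSC alone. In the Hoxa cluster 5 of 11 genes reached 1 FPKM in HSC and 0 did in liver Ter. These 5 entered through HSC alone, so their direction was fixed in advance. All 5 were lower (median -1.99, -0.59 from all genes), but 3 were with median-of-ratios scaling and 2 with quantile normalization, where the median was -0.78. Hoxa7 was listed at 0 in liver Ter and at 9.66 FPKM in HSC, and Hoxa9 stood at 0.0126 and 0.0102 against 5.91.

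Receptors of cytokines and growth factors were nearly all lower. Epor was the 1 receptor of 25 that was higher in liver Ter, and 22 were lower, with a median of -3.87 (-2.47 from all genes). Flt3, the receptor of multipotent and lymphoid progenitors, stood at 0.176 and 0.212 FPKM against 55.01. Cxcr4, which holds cells in the marrow niche, stood at 0.988 and 1.32 against 165. Il7r and Csf1r stood at 30.4 and 80.8 FPKM in HSC, and at 0.128 and 1.31 in liver Ter. Ifnar1, with a difference of -0.37, and Tek, at 1.02 FPKM in HSC, were the 2 of the list short of 2-fold.

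Lymphoid genes were among the furthest lower, with 22 of 23 and a median of -4.80 (-3.40 from all genes). Dntt, the terminal transferase of early lymphocytes, was listed at 0 in both liver Ter libraries and at 416 FPKM in HSC. Ighm, the mu heavy chain, stood at 2.01 and 2.06 FPKM against 772. Rag1, the recombinase, stood at 0.0955 and 0.112 against 40.8, and Vpreb1, of the surrogate light chain, at 0.157 and 0.307 against 152. Ikzf1, or Ikaros, was close to level, at 18.9 and 19.4 against 27.96. All 4 B cell markers were above 1 FPKM in HSC, with Cd79a at 194, whereas 0 of the 4 T cell markers were. The longer B cell list was lower for 9 of 9 compared (median -3.68, -2.28 from all genes). All 9 entered through HSC alone, with 0 at 1 FPKM in liver Ter, so their direction was fixed in advance. The T cell list was lower for 4 of 4 (median -2.07, -0.67 from all genes), and for 2 with quantile normalization. How far B lineage cells within the HSC samples carry the lymphoid differences was not tested. In bulk samples, fewer cells of a type and less RNA per cell cannot be told apart.

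Myeloid genes were lower throughout. All 20 genes of the myeloid list were lower in liver Ter, with a median of -3.91 (-2.51 from all genes), and so were all 13 neutrophil granule and alarmin genes, with a median of -5.04 (-3.64). Spi1, or PU.1, the factor that opposes Gata1, stood at 1.703 and 1.54 FPKM against 36.4. Mpo, myeloperoxidase, stood at 16.6 and 17.3 against 340.0, and Irf8 at 0.373 and 0.509 against 54.7. The alarmin S100a9 stood at 153 and 121 FPKM in liver Ter and at 5728 in HSC, and Ngp, a secondary granule gene, at 40.6 and 29.02 against 1829. Both genes were therefore detected in both liver Ter libraries, and both were higher in library A. Neutrophil markers summed to 14528 FPKM in CLP, 2767 in CMP and 167035 in the column labelled MEP, where the 8 erythroid markers summed to 20.6 FPKM. The part of mature neutrophils in the HSC values was not tested.

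Antigen presentation was low in liver Ter as a group. All 15 class I genes were lower, with a median of -4.83 (-3.43 from all genes), and all 10 class II genes, with -5.17 (-3.77). The 10 class II genes entered through HSC alone, with 0 at 1 FPKM in liver Ter, so their direction was fixed in advance. B2m, the light chain of every class I molecule, stood at 22.5 and 21.5 FPKM against 2999.7. H2-D1, a classical heavy chain, stood at 8.74 and 8.29 against 449.8, and Psmb8, an immunoproteasome subunit, at 0.115 and 0.354 against 86.7. Class I genes are highly similar in sequence, and reads shared between H2-Q6, H2-Q7 and their neighbours make the single values uncertain. The 7 genes B2m, H2-K1, H2-D1, H2-Q4, H2-Q6, H2-Q7 and H2-T23 together held 0.0129% of liver Ter FPKM, against 1.02% in HSC, 1.298% in spleen Ter, 0.409% in MEP and 0.776% in CMP. The low share of liver Ter was therefore also present against the 3 groups in its own number format. Nlrc5, the class I transactivator, stood at 0.0124 and 0.00671 FPKM against 9.93. Of class II, Cd74, the invariant chain, stood at 0.696 and 0.607 FPKM against 285. The transactivator Ciita was low in both, at 0.0133 and 0 against 2.82.

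Genes of innate sensing were mostly lower too. Interferon-stimulated genes were lower for 22 of 24 (median -2.69, -1.29 from all genes), and for 14 with quantile normalization. Ifitm3, which blocks virus entry and is constitutive in stem cells, stood at 1.96 and 2.19 FPKM against 293. Rsad2 (viperin) was level, at 7.33 and 7.54 against 8.17, and Irf9 differed by -0.83. Toll-like receptors and their relays were lower for 14 of 14 (median -2.86, -1.46 from all genes), with Tlr7 at 0.0172 and 0.0559 FPKM against 11.96 and the adaptor Myd88 at 2.03 and 2.43 against 15.2. Lysosomal genes were lower for 15 of 16, with a median of -3.26 (-1.86 from all genes). Ctss, the cathepsin of antigen-presenting cells, stood at 1.703 and 2.23 FPKM against 212. Ctsb, at 236 against 109.8, was the 1 lysosomal gene higher in liver Ter.

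Adhesion, motility and actin genes of leukocytes were lower for 22 of 23 members, with a median of -4.54 (-3.14 from all genes). Tmsb10, a thymosin that binds actin monomers, stood at 8.98 and 9.43 FPKM against 932. Coro1a, the leukocyte coronin, stood at 5.31 and 5.43 against 226, and Vim, the intermediate filament gene, at 2.62 and 2.62 against 67.7. The selectin ligand Selplg stood at 0.673 and 0.681 against 75.1. The exception was Itga4, whose product binds erythroblasts to the macrophage of the erythroblastic island, with 27.2 and 25.4 FPKM against 30.1.

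Immediate early genes were lower for 20 of 21 members, with a median of -5.31 (-3.91 from all genes). Fos stood at 3.55 and 3.78 FPKM against 668, Jun at 2.16 and 2.43 against 607, and Egr1 at 0.336 and 0.394 against 169. Nr4a1, an orphan receptor induced with them, stood at 0.652 and 0.945 against 238. Btg2 was the 1 member short of 2-fold, at 79.6 and 81.8 FPKM against 156. These genes answer growth factors and stress within minutes. Fos was at 310.0 FPKM in CMP, 208 in MEP and 503 in spleen Ter, and liver Ter had the lowest value of the 7 groups.

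Factors of the Ikaros, Ets and Runx families were lower for 17 of 18 members (median -3.79, -2.39 from all genes). Cbfb, the shared partner of the Runx proteins, stood at 0.443 and 0.541 FPKM against 51.4. Runx1 had a liver Ter mean of 0.868 FPKM against 12.8, and Runx3 stood at 0.203 and 0.205 against 16.98. Ets1 stood at 0.145 and 0.215 against 29.96, while Gabpa, the broadly expressed Ets factor, was less far apart with a difference of -1.57.

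DNA methylation and polycomb genes lay close to the all-gene median, with 15 of 18 lower and a median of -1.67 (-0.27 from all genes); only 2 to 9 were lower under the other scalings. The de novo methyltransferase Dnmt3a stood at 0.168 and 0.257 FPKM against 5.67. Uhrf1, which recruits the maintenance enzyme to replicating DNA, was near level at 72.9 and 69.4 against 92.6. Bmi1, the polycomb gene needed for stem cell self-renewal, stood at 0.529 and 0.703 against 15.3. Ezh1, with a difference of 0.34, was the 1 gene of the list above 0 in the FPKM as deposited.

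Survival genes were lower for 13 of 16 members, beside 66.4% of all genes, with a median of -2.26 (-0.86 from all genes). Bcl2l1 was the 1 higher member. With globin-free totals, median-of-ratios and quantile scaling 10, 9 and 7 were lower, and the median rose to at most -0.55. Mcl1 turned to a positive difference under median-of-ratios scaling, and Bad, Fas and Xiap did with quantile normalization. Bcl2 itself stood at 0.0383 and 0.0374 FPKM against 11.2. Bak1, a death effector, stood at 2.402 and 2.72 against 50.2, and Bid, its activator, at 0.691 and 0.562 against 13.7. Bbc3 (PUMA) was close to level with a difference of -0.21.

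Genes known from fetal cells did not move as a group. Of 18 listed, 10 were compared, 3 higher and 7 lower, beside 7.27% and 66.4% of all genes. Their median of -1.22 (0.18 above all genes) turned to 0.20 with quantile normalization. H19, an imprinted fetal RNA, stood at 4.33 and 5.77 FPKM against 0.201, and Lin28b, which sets the fetal program of blood cells, at 1.43 and 1.51 against 0.0148. Hmga2, a target downstream of Lin28b, was higher in HSC, at 3.09 FPKM against 0.1604 and 0.2105. Hmga1 stood at 7.82 and 8.45 against 124.

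Of the 22 nuclear genes of oxidative phosphorylation, 9 were lower and none higher as deposited, with a median of -0.68 (0.72 above all genes). Under each of the other scalings 2 were higher and 1 or 2 lower, and the median turned to between 0.16 and 0.49. Atp5b stood at 183 FPKM against 152 and Cox4i1 at 79.6 and 79.4 against 93.1. Cox5a lay lowest, at 3.69 and 4.13 FPKM against 39.97.

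Genes of other cell types in the liver were low in liver Ter. Of 8 hepatocyte genes compared, out of 15 listed, 5 were higher than in HSC (median 1.27, 2.67 above all genes), but at low levels. Alb, albumin, stood at 9.097 and 11.2 FPKM and Afp, the fetal albumin, at 4.36 and 6.28. Both were higher in library B, and Alb was listed at 0 in HSC. Macrophage genes, which would mark the central cell of the erythroblastic island, were lower than in HSC for 15 of 17 (median -3.12, -1.72 from all genes). With quantile normalization 10 were lower. C1qa stood at 2.39 and 1.86 FPKM against 50.3, and Marco, a scavenger receptor, differed by 0.75. Within the liver Ter number format the list was less clear. Against CMP 2 of 11 were higher and 6 lower (median -1.25), and against MEP 2 of 10 were higher and 4 lower (median 0.57). Megakaryocyte genes split, with 3 higher and 6 lower of 13 and a median of -0.82 (0.58 above all genes) that turned to 0.71 with quantile normalization. Pf4 stood at 3.16 and 8.07 FPKM against 3.84 and Ppbp at 1.1001 and 4.05 against 0.111; both differed more than 2-fold between libraries A and B. Endothelial and stromal genes were lower for 4 of the 5 compared, beside 66.4% of all genes (median -2.27, -0.87 from all genes). All 5 entered through HSC alone, with 0 at 1 FPKM in liver Ter. With quantile normalization 2 were lower. Pecam1 stood at 0.118 and 0.192 FPKM against 19.7. The part of these cells in the liver Ter values was not tested.

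By rule, the 20 protein-coding genes furthest apart in each direction with at least 20 FPKM in the higher group were named, passing over unnamed gene models and a few gene classes. The 20 higher in liver Ter had differences from 7.30 to 10.91. Those reported here were, in order, Slc4a1, Hbb-bs, Alas2, Rhd, Trim10, Kel, Hbb-bt, Hbb-y, Ermap, Rhag, Cldn13, Hba-a1, Ypel4, Epb42, Klf1, Dmtn and Tmcc2. Among these, Cldn13, a claudin gene of rodents, stood at 247 and 236 FPKM against 0.0844. In spleen Ter all 20 stood below their liver Ter level. The 20 lower in liver Ter had differences from -9.34 to -6.92. In order they were Prss34, Dntt, Mcpt8, Chil3, Jun, Klf2, Cd74, Ifi27l2a, Ly6d, H2-Ab1, H2-Eb1, Tpm3-rs7, Fos, Nr4a1, B2m, Egr1, Vpreb1, Vpreb3, Cd79a and H2-K1. The first and the third are proteases of basophils. Prss34 stood at 0.0576 and 0.281 FPKM in liver Ter, 756 in HSC and 801 in CMP, and Mcpt8 at 0.451 and 0.734, 539 and 495. Each of the 20 reached at least 12.2 FPKM in another group of the liver Ter number format. The rule itself required 1 FPKM in a group of that format, so none could be missing from it.

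**Figure D4:**
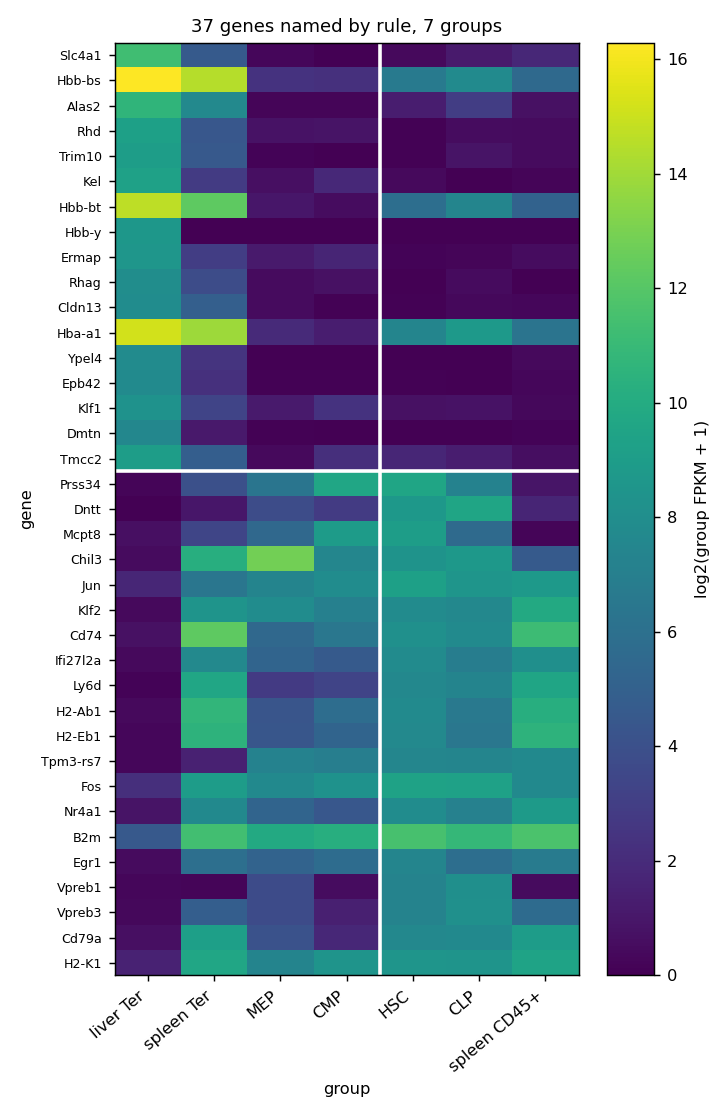
The 37 reported genes named by rule (rows, 17 higher in liver Ter above the white line and 20 lower below) in the 7 groups (columns), coloured by log2(FPKM + 1). The vertical line parts the 4 groups of the liver Ter number format from the 3 of the HSC format. Genes of the upper block have their highest value in liver Ter. Spleen Ter ranges there from 0 for Hbb-y and 1.14 FPKM for Dmtn to 22394 for Hbb-bs. In the lower block liver Ter has the lowest value of the 7 groups in every row except Mcpt8, where the spleen control is lower, and Vpreb1, where spleen Ter is.

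The distance of the pair was set beside that of other pairs. Liver Ter stood apart from every group: 73.6% of genes were 2-fold apart from HSC, 75.3% from CLP and 71.7% from the spleen control, across number formats, and 70.5% from CMP, 66.3% from spleen Ter and 55.0% from MEP within its own. HSC and CMP, which differ in format, were 24.9% apart. Liver Ter and CMP were deposited in 1 format, so this pair is free of the change of format, though both comparisons share the liver Ter samples. There 8.44% of genes were higher in liver Ter and 62.1% lower. Against CMP, 11 of 12 heme genes were higher (median 4.80), 13 of 16 membrane genes (4.88), 12 of 22 mitosis genes (1.48), and 4 of 4 adult globins (13.97). Lower against CMP were 17 of 19 stem cell genes (median -3.13), 15 of 15 class I genes (-4.41), 10 of 10 class II genes (-4.95), 15 of 19 immediate early genes (-4.32) and 22 of 23 adhesion genes (-4.63). The class II genes, all under 1 FPKM in liver Ter, entered here through CMP alone. The lymphoid list was smaller there, at 10 of 13 lower with a median of -1.95, beside -4.80 against HSC.

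**Figure D5:**
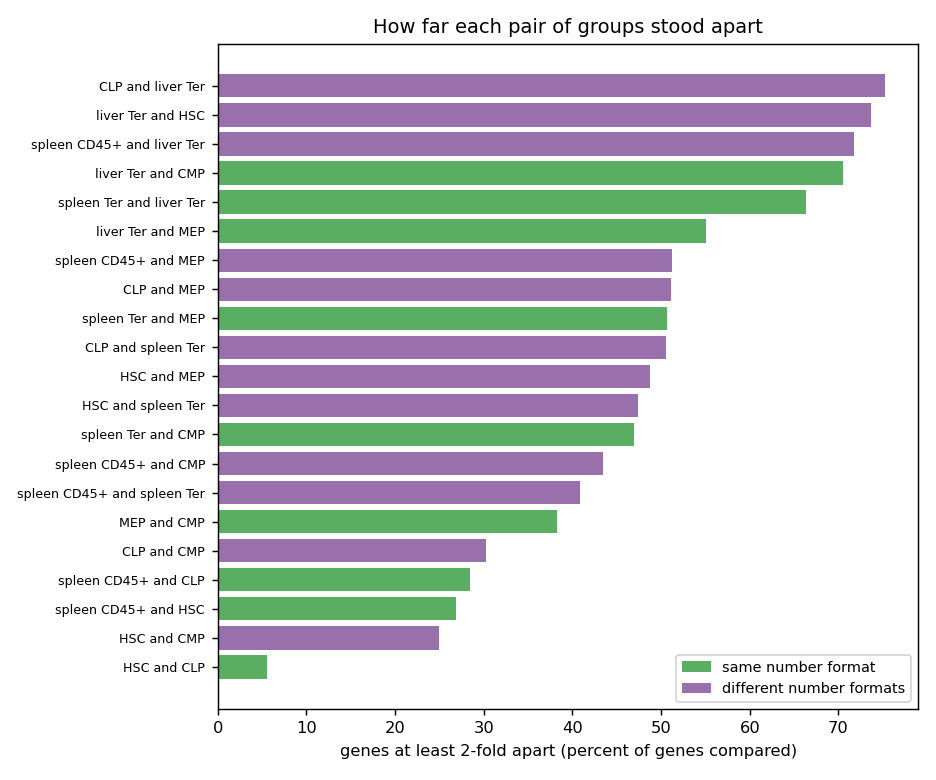
Each bar is a pair of groups, its length the percent of compared genes at least 2-fold apart, green for pairs in 1 number format and purple for pairs across formats. The 6 pairs that include liver Ter are the 6 longest, between 55.0% and 75.3%, in both colours, and HSC with CLP is the shortest at 5.59%.

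Promoter letters were counted over windows from 250 bases before to 50 after each RefSeq start, on both strands. AGATAA occurred in 11.2% of all 32851 windows, in 14.49% of the 214 windows of the 200 genes highest in liver Ter and in 11.5% of the 182 windows of the 200 highest in HSC. Of the 200 genes in each direction 159 and 155 had a window. CCACCC was in 31.5% of all windows and in 41.6% and 40.7% of the windows of these sets. AGAGGAAG, a PU.1 and Ets type site, was in 4.55% of all windows, 1.40% of the liver Ter set and 6.59% of the HSC set, or 3 and 12 windows. TGTGGT, a Runx site, was in 16.8%, 20.6% and 19.2%. CACGTG, the E-box, was in 7.15%, 8.88% and 4.95%. CCACACCC, which contains no CCACCC, was in 3.56%, 3.74% and 4.95%. These are counts of letters, not of binding.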

How the data were processed

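RNA of 14 sorted samples in 7 groups of 2 was sequenced. The authors deposited 1 FPKM value per gene and group, the mean of its samples. The build was mm10, per the submitters' processing notes, while aligner and counter were not given in the sources used here. Of 49583 genes, 49324 matched GENCODE release M21, which gave symbols and GRCm38 coordinates. Liver Ter and HSC stand in different number formats, without sample values for HSC, so no test was made. Differences were taken on log2(FPKM + 1) and called at 2-fold, for genes of at least 1 FPKM in either group. The 2 liver Ter libraries were solved from the digits of their mean as whole fragments per library, a step tested on simulated data. Recovered genes held 29.7% of liver Ter FPKM, since the most abundant ones could not be solved. Nothing says the 2 samples came from separate animals, so their spread may be technical. Genes were named as the 20 protein-coding genes per direction with the largest difference and at least 20 FPKM in the higher group. Unnamed models, antigen receptor segments, ribosomal, mitochondrially encoded and histone genes were passed over, and genes higher in HSC also needed 1 FPKM in a group of the liver Ter format. All list members could be named, but a few genes are not reported here. Members and lists were chosen with earlier results of these data known. Alternatives covered pseudocount, filters, scaling, genes set aside and single libraries. Python 3.11.15, NumPy 2.4.6, pandas 2.3.3 and matplotlib 3.10.9 were used.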

Additional observations from a re-analysis of the deposited data

How the results depend on the processing

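The counts depended most on scaling. Genes higher in liver Ter numbered 1821 when globin genes were left out of the totals, 1919 under median-of-ratios scaling and 2646 after quantile normalization, against 961 as deposited. Genes lower numbered 5238 under median-of-ratios scaling, 2850 after quantile normalization and 5437 with a minimum of 5 FPKM, which tests fewer genes, against 8769. Leaving out each liver Ter library in turn gave 948 to 960 higher and 8797 to 8806 lower genes. Genes whose libraries were not recovered kept their mean in these runs, so part of these counts could not move. The alternatives that restored the genes set aside, or that set genes aside by the reverse rule, could not move a list. No list member had been set aside, and the reverse rule met 0 genes. Over 12 alternatives, these included, 32 of the 38 lists kept the sign of their median. The exceptions were the iron, erythropoietin, DNA replication, oxidative phosphorylation, megakaryocyte and fetal lists, and the fetal median became 0.199 with quantile normalization. Relative to the all-gene median, 32 lists stayed on the same side in every setting. Those that crossed it were the D cyclin, DNA methylation, endothelial, megakaryocyte, fetal and oxidative phosphorylation lists. None of the 40 genes named by rule changed direction in these alternatives. They were picked for the largest differences, so their direction could hardly change. No paired analysis was possible because each group has 1 mean per gene and HSC has no values per replicate. The missing HSC spread and the change of number format limit every difference.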

Other observations

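Further gene sets were drawn up after their values were seen and are given as descriptions. Of 17 other red cell genes compared, 16 were higher in liver Ter, with a median difference of 4.58 beside -1.40 for all genes. Hbq1b, a theta globin gene, stood at 153 and 154 FPKM in libraries A and B and was listed at 0 in HSC. Mfsd2b, the sphingosine-1-phosphate exporter of red cells, stood at 51.4 and 48.8 FPKM against 1.13, and Abcg2, a porphyrin exporter, at 43.8 and 44.3 against 2.15. Solute carriers were higher for 10 of 11, with a median of 2.89. Slc38a5, an amino acid transporter, stood at 49.1 and 46.6 FPKM against 0.0274, and Slc22a4, which carries ergothioneine, at 54.3 and 53.9 against 0.842.

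Sets of other blood cells differed. All 10 basophil and mast cell genes compared were lower in liver Ter, with a median of -4.95, and their summed level was 5.58 FPKM in liver Ter, 1771 in HSC, 1655 in CMP and 392 in CLP. Of 10 monocyte and dendritic cell genes all were lower (median -3.73), as were all 5 plasma cell genes (median -3.71). Of 6 eosinophil genes compared 3 were lower, with a median of -0.70, above that of all genes. Prg2, a granule protein gene, stood at 21.03 and 15.4 FPKM against 20.2, and Ear2 at 3.17 and 0.952 against 103. Chemokine genes were lower for 9 of 11, beside 66.4% of all genes. Ccl3 stood at 2.29 and 3.35 FPKM against 364 and Ccl4 at 0.265 and 0.691 against 175. The part of such cells in the HSC values was not tested.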
